A study of Mus musculus with 77 samples.

Results

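Aldosterone, the main mineralocorticoid, was set against vehicle in a mouse adenocarcinoma line labelled parental MR580C, and every gene whose value varied among the 6 libraries of that comparison was taken. These were 18304 of the 25124 genes in the table, measured in 6 of the 77 samples of the series. The series examined how the mineralocorticoid receptor (MR, gene Nr3c2) and the glucocorticoid receptor (GR, gene Nr3c1) shape hormone responses, by RNA sequencing of cell lines and colon organoids and by chromatin immunoprecipitation. The tested cells were parental, that is, not labelled as GR knockout, carried the MR form that the labels call MR580C, and received 10 nM aldosterone for 2 h (3 libraries). Their controls were the same cells given vehicle for 2 h (3 libraries). All 6 cultures had been kept in medium with charcoal-stripped serum, which is depleted of steroids, for 24 h before hormone. The labels do not define MR580C relative to MR, and do not say whether the line is 1 clone or the 3 libraries of a group are separate cultures, so the p-values measure the spread between these libraries, which may be technical.

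Aldosterone enters cells by diffusion and binds MR, a nuclear receptor held in the cytoplasm by heat shock proteins and immunophilins. The bound receptor moves to the nucleus and acts on genes near palindromic DNA elements that it shares with GR, the androgen receptor and the progesterone receptor. Its textbook targets in kidney and colon epithelium raise sodium uptake, through the kinase SGK1 and the epithelial sodium channel, while PER1, GILZ (Tsc22d3) and FKBP5 are common early targets of MR and GR in many cells. A response at 2 h is mostly one of early transcripts.

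The libraries held 54.22 M, 52.31 M and 45.28 M reads (M, mega) after aldosterone, against 48.2 M, 45.75 M and 58.53 M after vehicle, of which 30.18 M to 39.24 M fell in annotated genes. Levels below are normalized reads, the whole reads per gene that the deposited values give back, divided by the size factor of the library, and 1 read is worth about 1 normalized read in each library. The ribosomal precursor Rn45s took 12.5% to 15.3% of the reads in genes after aldosterone and 14.1% to 14.9% after vehicle. Defining epithelial markers of the labelled tumour type were nearly absent: Epcam was at 0 reads in all 6 libraries, and Cdh1 averaged 0 normalized reads after aldosterone and 0.747 after vehicle. Of 20 epithelial markers, 15 averaged under 10 normalized reads in both groups, while Krt14 and Gata3 exceeded 100. Mesenchymal markers were abundant, with 13 of 18 over 100 normalized reads in vehicle cells, Vim at 176377 after aldosterone and 184901 after vehicle, and summed levels of 376504 to 389378 after aldosterone and 384633 to 391179 after vehicle. No mesenchymal, immune, endothelial or adipocyte marker passed the test below.

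Aldosterone raised 116 genes and lowered 75, together 1.04% of the 18304 tested (0.634% raised and 0.41% lowered, limma on the deposited values, adjusted p under 0.05), and 1701 genes had an unadjusted p under 0.05. The 3 aldosterone libraries lay wholly above or wholly below the 3 vehicle libraries for 189 of the 191 called genes, against 13.1% of all genes tested. Since the calls come from the same 6 libraries, this separation follows largely from the calls and is no added support. Most responses were modest. Among the 109 raised genes that averaged over 10 normalized reads after vehicle, the fold (ratio of mean normalized reads) had a median of 1.31 and reached 2 for 8 genes: Per1, Tsc22d3, Foxred2, Jade2, Sphk1, Orm3, Ccn2 and Cp. Among the 75 lowered genes the median was 0.819, and 1 gene fell to 0.5 or less. The aldosterone library farthest from vehicle was library 2 for 71 of the 116 raised and 50 of the 75 lowered genes. The fit without vehicle library 3 gave 41 calls (35 raised, 6 lowered), all of them among the 191. Fits without aldosterone library 2, vehicle library 1 or vehicle library 2 gave 103, 97 or 111 calls. Of these, 100, 97 or 106 were among the 191. Fits without aldosterone library 1 or 3 gave 128 or 147 calls, of which 121 or 119 were among the 191. The 41 genes called without vehicle library 3 also passed in each of the other 5 omissions, and the 6 lowered ones among them were Ptgs2, Pparg, Csf1, Plk2, Ankrd1 and Socs5.

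**Figure D1:**
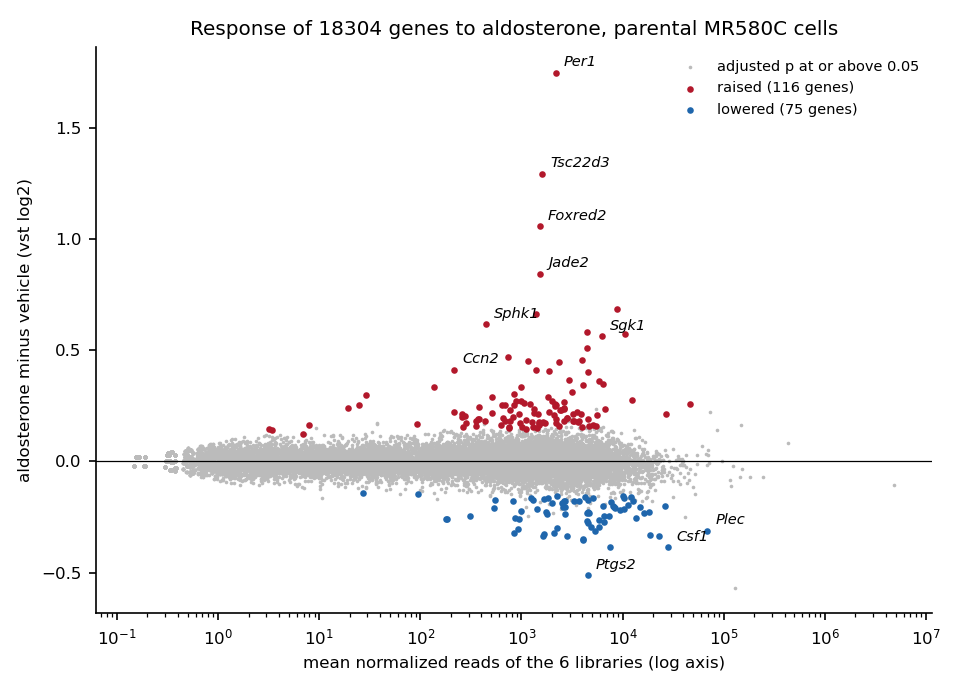
Mean normalized reads of the 6 libraries (log axis) against the aldosterone minus vehicle difference on the deposited vst log2 scale, 1 point per gene, for 18304 genes. Raised genes are red (116), lowered genes blue (75) and all others grey. Per1 stands highest at 1.75, and Ptgs2 is the lowest called gene at -0.51.

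Genes that corticosteroids induce in many tissues included the 2 largest differences, those of Per1 and Tsc22d3. Of 33 measured members of that list, 11 rose, none fell and 22 did not pass, against 0.634% raised and 0.41% lowered over all genes tested. The median difference of the list was 0.079 on the vst log2 scale, against 0.0007 over all genes tested. The list was written with earlier results of these data known, so its counts are a description and no separate support. Per1, a repressor in the circadian clock (chr11:69098949-69109957, mm10, plus strand), had 3546, 4043 and 3859 normalized reads in the aldosterone libraries, against 540.3, 516 and 554 in the vehicle libraries. Every aldosterone library was more than 6 times as high as any vehicle library. Per1 averaged 3816 ± 251 after aldosterone and 537 ± 19.2 after vehicle (SD, n = 3 each), a 7.11-fold rise (difference 1.75 ± 0.04 SE on the vst log2 scale, limma adjusted p = 1.56e-19). Tsc22d3, which encodes the anti-inflammatory leucine zipper protein GILZ (X chromosome), had 2525, 2905 and 2369.5 normalized reads after aldosterone, against 589.6, 585 and 518 after vehicle. The groups were far apart, and the fold was 4.61 (difference 1.29 ± 0.045, limma adjusted p = 1.31e-15).

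Sgk1, the serum- and glucocorticoid-regulated kinase that keeps sodium channels at the membrane of epithelia, was already abundant without hormone. It had 7688, 7348 and 7973 normalized reads after aldosterone, against 4665, 5056 and 4849 after vehicle. No library of 1 group reached the other, and the fold was 1.58 (difference 0.56 ± 0.04, limma adjusted p = 2.65e-09). Fkbp5, a cochaperone that lowers the hormone affinity of corticosteroid receptors, had 3610.1, 3737 and 3545 normalized reads after aldosterone, against 2638, 2776 and 2797 after vehicle. The rise was small but larger than the spread within either group (1.33-fold, difference 0.31 ± 0.037, limma adjusted p = 1.12e-05). Klf9, a Krueppel-like repressor, averaged 1205 ± 77 after aldosterone and 789.9 ± 18 after vehicle (SD, n = 3 each), 1.52-fold higher (limma adjusted p = 4.81e-06). The others that rose were Ddit4, an inhibitor of mTOR complex signalling (1.55-fold), Spsb1, a SOCS-box ubiquitin ligase adaptor (1.96-fold), Ampd3, an AMP deaminase (1.52-fold), the survival factor Bcl2l1 (1.41-fold), the transglutaminase Tgm2 (1.29-fold) and the metallothionein Mt1 (1.37-fold). Mt1 lost its call without aldosterone library 3 (limma adjusted p = 0.13), without vehicle library 2 (0.115) and without vehicle library 3 (0.423), and Tgm2 without vehicle library 3 (0.0662).

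Some well known members of that list did not pass. Dusp1, a MAP kinase phosphatase, had 488, 529 and 567 normalized reads after aldosterone, against 410.2, 450.4 and 487 after vehicle. Every aldosterone library was above every vehicle library, but the lowest aldosterone and the highest vehicle library were nearly equal, and the limma adjusted p was 0.379. Zbtb16, a transcriptional repressor, was at or under 3 normalized reads in all 6 libraries. Its response could not be detected at this depth.

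**Figure D2:**
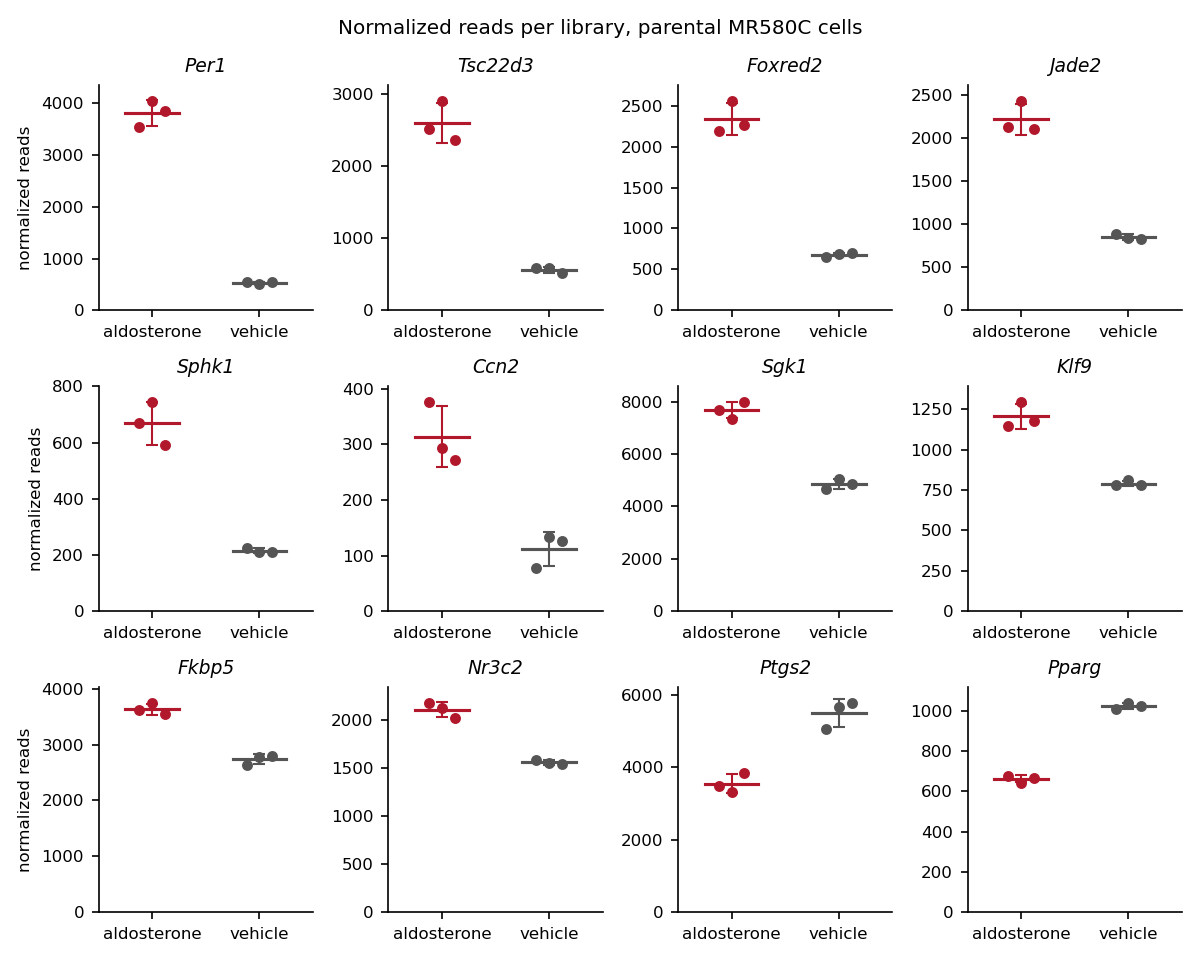
Normalized reads of 12 genes in each library (points), with the group mean (line) and SD (bars), for 3 aldosterone libraries on the left and 3 vehicle libraries on the right of each panel, on linear axes from 0. The groups do not overlap in any panel: 10 genes are higher and 2, Ptgs2 and Pparg, lower after aldosterone.

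The letters of the shared receptor element were then looked for near the starts of the called genes. The element is often written as inverted repeats of AGAACA with 3 free bases between, and its core ACANNNTGT reads the same on both strands. The strict core searched adds a G before it and a C after it, each set off by 1 free base. RefSeq windows of 300 bases (250 before to 50 after a start, GRCm38.p6) were at hand for 88 of the 116 raised and 55 of the 75 lowered genes. The strict core stood in a window of 5 raised genes and 1 lowered gene (Mir100hg), and in 0.481% of the 13518 tested genes with a window and 0.475% of all 32851 windows. The shorter ACANNNTGT, which lies inside the strict core, stood in windows of 9 raised and 5 lowered genes, and in 5.71% of the tested genes. The 6 letters AGAACA, read on both strands, stood in windows of 13 raised and 10 lowered genes, and in 16.3% of the tested genes. The windows of the 5 raised genes are shown because they alone among the raised genes hold the strict core, given in capitals. The core began 188 bases before the start in Sgk1 (chr10:21993640-21993939, plus strand, 1 of 6 windows of that gene), 94 bases before in Mt1 (chr8:94178839-94179138, plus), 172 before in Txnip (chr3:96557707-96558006, plus), 46 before in Suox (chr10:128673869-128674168, minus) and 200 before in Gm6093 (chr13:33569268-33569567, minus). The Sgk1 window belongs to a start upstream of the Sgk1 record whose reads were counted, which begins at chr10:21994666. Of the 5 genes, Sgk1 and Gm6093 were called in all 6 omissions, Txnip in 4, Mt1 in 3 and Suox in 1 (limma adjusted p of Suox 0.0158 over all libraries). Binding at these letters was not analysed here.
Sgk1: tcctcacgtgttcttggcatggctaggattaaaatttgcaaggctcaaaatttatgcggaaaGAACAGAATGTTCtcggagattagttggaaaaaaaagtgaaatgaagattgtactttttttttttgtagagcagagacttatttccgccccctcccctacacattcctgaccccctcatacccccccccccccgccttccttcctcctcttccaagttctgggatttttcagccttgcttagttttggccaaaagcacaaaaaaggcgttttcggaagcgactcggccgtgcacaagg
Mt1: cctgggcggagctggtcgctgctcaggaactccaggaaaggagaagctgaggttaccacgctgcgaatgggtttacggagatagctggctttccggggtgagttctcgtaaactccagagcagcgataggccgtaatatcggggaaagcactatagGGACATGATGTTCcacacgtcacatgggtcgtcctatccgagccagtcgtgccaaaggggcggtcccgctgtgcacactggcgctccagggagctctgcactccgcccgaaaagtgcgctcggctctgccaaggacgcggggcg
Txnip: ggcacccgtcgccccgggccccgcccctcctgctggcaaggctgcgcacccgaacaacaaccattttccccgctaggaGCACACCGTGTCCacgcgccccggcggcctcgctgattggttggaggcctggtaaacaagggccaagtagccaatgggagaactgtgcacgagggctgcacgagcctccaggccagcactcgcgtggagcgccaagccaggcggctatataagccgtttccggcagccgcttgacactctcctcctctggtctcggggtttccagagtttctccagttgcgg
Suox: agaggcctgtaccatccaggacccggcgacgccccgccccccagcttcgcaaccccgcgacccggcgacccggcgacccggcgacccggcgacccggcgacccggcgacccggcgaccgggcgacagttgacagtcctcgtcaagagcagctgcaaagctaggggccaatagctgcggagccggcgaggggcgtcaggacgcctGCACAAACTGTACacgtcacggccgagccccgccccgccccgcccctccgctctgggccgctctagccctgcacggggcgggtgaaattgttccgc
Gm6093: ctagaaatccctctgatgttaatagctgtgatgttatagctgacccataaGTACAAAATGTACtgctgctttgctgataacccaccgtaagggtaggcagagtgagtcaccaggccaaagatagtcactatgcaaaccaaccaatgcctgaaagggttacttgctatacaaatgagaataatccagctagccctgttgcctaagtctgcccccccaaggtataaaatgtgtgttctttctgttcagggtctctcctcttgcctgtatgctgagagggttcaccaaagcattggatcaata

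Several of the strongest responses lay outside the list of corticosteroid-induced genes. Foxred2, an oxidoreductase of the endoplasmic reticulum that serves protein degradation, had 2191, 2553 and 2259 normalized reads after aldosterone, against 656, 691 and 696 after vehicle. It rose 3.43-fold with no overlap (difference 1.06 ± 0.04, limma adjusted p = 7.24e-15). Jade2, a scaffold of histone acetyltransferase complexes, had 2131, 2431 and 2109 normalized reads after aldosterone, against 893, 846 and 825 after vehicle. It rose 2.6-fold (difference 0.84 ± 0.04, limma adjusted p = 8.06e-13). Sphk1, the kinase that makes sphingosine-1-phosphate, had 668, 744 and 593 normalized reads after aldosterone, against 225, 212 and 209.5 after vehicle, a 3.1-fold rise from a lower level (difference 0.62 ± 0.04, limma adjusted p = 3.23e-10). Other genes of the naming rule rose less, among them the tensins Tns2 (1.65-fold) and Tns1 (1.73-fold), the GTPase Hras (1.49-fold), the mRNA decay factor Zfp36l2 (1.55-fold), the nuclear receptor cofactor Trim24 (1.55-fold), the DNA-binding partner of YAP, Tead4 (1.59-fold), and the secreted proteoglycan Tsku (1.41-fold). All of these passed without any 1 library, with limma adjusted p between 1.39e-08 (Tns2) and 5.13e-06 (Tsku).

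Cp, Orm3 and Orm1, genes of acute-phase proteins, were also called raised, and no list of such genes was counted. Cp, which encodes the copper carrier ceruloplasmin, had 1647, 2510.0 and 1552 normalized reads after aldosterone, against 1002, 823 and 787 after vehicle. Library 2 was well above the other aldosterone libraries, the fold was 2.19 (limma adjusted p = 5.23e-06), and the call was lost without vehicle library 3 (0.052) and with robust limma (0.301). Orm3, an orosomucoid, had 181, 215 and 209.6 normalized reads after aldosterone, against 79.6, 74.1 and 61.5 after vehicle (2.81-fold, limma adjusted p = 1.66e-06). Its neighbour Orm1, 7998 bases away on chromosome 4, averaged 11.7 ± 1.89 normalized reads after aldosterone and 2.02 ± 0.808 after vehicle (SD, n = 3 each), and was called in none of the 6 omissions.

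Some RNAs with few reads in vehicle cells had high folds. Gm6093, a noncoding RNA gene on chromosome 13, had 47.3, 48.3 and 63.1 normalized reads after aldosterone, against 7.85, 3.42 and 4.46 after vehicle (10.1-fold, limma adjusted p = 2.92e-06). On chromosome 3, 4930503B20Rik averaged 43.9 ± 11.8 after aldosterone and 5.77 ± 1.33 after vehicle (SD, n = 3 each), and Gm16325, on the opposite strand of the same stretch, averaged 34.9 ± 7.4 and 3.88 ± 3.03. Their spans overlap and the headers name no strand setting for the counting, so reads of 1 cannot be told apart from reads of the other. Epas1 (13, 2.96 and 3.38 normalized reads) and Slc7a2 (1.86, 2.96 and 15.8) were called with all 3 vehicle libraries at 0 reads, each passed in 1 of 6 omissions, and neither passed in the authors' deposited table, so no fold is given for them. Gm5532, a noncoding RNA gene on chromosome 1, was called from 6.5, 6.9 and 30.4 normalized reads after aldosterone, against 2.24, 1.14 and 0 after vehicle, and also passed in 1 omission.

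The receptors were both well expressed. Nr3c2 had 2174, 2127 and 2022 normalized reads after aldosterone, against 1587, 1555 and 1541 after vehicle. It rose 1.35-fold without overlap (difference 0.29 ± 0.036, limma adjusted p = 2.65e-05). In the authors' deposited tables, the log2 fold change of Nr3c2 was 0.43 in these cells and 0.45 in GRKO cells with MR580C. It was 0.04 in parental MR cells and -0.07 in parental cells without MR. Reads of the added MR580C and of the cell's own gene are not separated in these counts. Nr3c1 had 7806, 7580.3 and 7514 normalized reads after aldosterone, against 7853, 8384 and 8103 after vehicle, and did not pass (limma adjusted p = 0.568). Per kilobase of exon, Nr3c1 stood at 1153 normalized reads after aldosterone and 1226 after vehicle, and Nr3c2 at 375 and 277. Of 15 measured receptor, coregulator and steroid enzyme genes, Nr3c2 was the only member called, and none fell. Over all genes tested, 1.04% were called.

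Epithelial sodium and potassium transport genes, the classical aldosterone programme of kidney and colon, showed 1 call among 24 measured members. Over all genes tested, 1.04% were called. The called member was Usp2, a deubiquitinase that stabilizes the sodium channel and clock proteins. It had 417, 409 and 428 normalized reads after aldosterone, against 293, 296 and 302 after vehicle (1.41-fold, limma adjusted p = 0.00618, and 0.1 without vehicle library 3). The channel subunit gene Scnn1a averaged 6.74 ± 4.96 normalized reads after aldosterone and 6.14 ± 1.38 after vehicle (SD, n = 3 each), near the detection limit in both. The median difference of the list, 0.007 on the vst log2 scale, was close to that of all genes.

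Some clock genes beside Per1 rose. Of 19 measured members, 5 rose, none fell and 14 did not pass, against 0.634% raised over all genes tested. The list as a whole was not shifted far: its median difference was 0.017 on the vst log2 scale, with 11 members positive and 8 negative. Per2, the partner of Per1, had 1005, 974 and 980.3 normalized reads after aldosterone, against 741, 604 and 768 after vehicle (1.4-fold, limma adjusted p = 0.000838). Bhlhe40, which represses clock targets at E-boxes, had 2879.7, 3028 and 2931 normalized reads after aldosterone, against 2318, 2397 and 2322 after vehicle (1.26-fold, limma adjusted p = 0.000286). Both held in all 6 omissions. The repressors Nfil3 (1.2-fold, limma adjusted p = 0.0279) and Bhlhe41 (1.18-fold, 0.0483) held in 0 and 1 of them, Bhlhe41 with 0.00554 without aldosterone library 1 and 0.197 to 0.459 in the other 5, Nfil3 with 0.0501 to 0.265. Nr1d1, a clock repressor, averaged 999 ± 89.5 after aldosterone and 1155 ± 47.7 after vehicle (SD, n = 3 each; limma adjusted p = 0.228).

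Matricellular genes moved in both directions. Among 22 measured targets of the YAP and TEAD factors and related genes, 2 rose and 3 fell. Among the raised members, Ccn2, a connective tissue growth factor, had 376, 294 and 272 normalized reads after aldosterone, against 77.3, 134 and 126 after vehicle (2.79-fold, limma adjusted p = 3.26e-06). Its close relative Ccn1 fell, with 6188, 5277 and 6050.5 normalized reads after aldosterone, against 7095, 6997 and 7688 after vehicle (0.804-fold, limma adjusted p = 0.0018, and 0.283 without vehicle library 3). Ankrd1, a muscle and wound response gene, had 4146, 3999.5 and 3899.6 normalized reads after aldosterone, against 5086, 5075 and 5104 after vehicle (0.789-fold, limma adjusted p = 5.77e-05). The LIM protein gene Ajuba was also lowered (0.855-fold, limma adjusted p = 0.0189), with adjusted p of 0.0553 to 0.4 in 5 of 6 omissions.

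**Figure D3:**
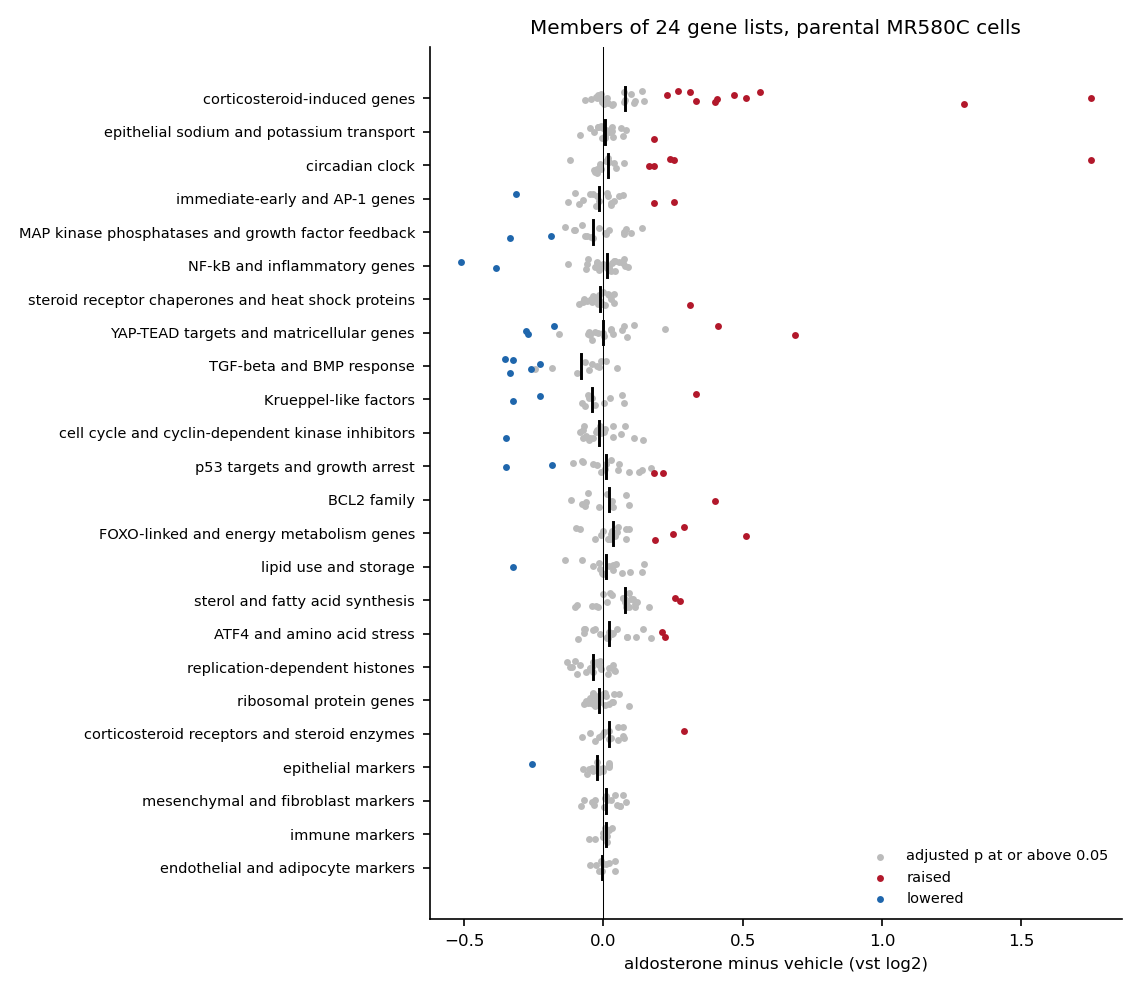
Aldosterone minus vehicle difference (vst log2) of each measured member of 24 gene lists, 1 point per gene, red where raised, blue where lowered and grey otherwise, with the list median as a black bar. Per1, a member of both the corticosteroid-induced and the clock list, lies furthest right at 1.75, and the 5 called members of the TGF-beta and BMP list all lie left of 0.

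Of 16 measured TGF-beta and BMP response genes, many of them feedback inhibitors, 5 fell and none rose. Over all genes tested, 0.41% were lowered and 0.634% raised. A negative difference was seen in 14 of the 16, against 49.2% of all genes tested (list median -0.08 on the vst log2 scale). Smad7, the inhibitor that sends TGF-beta receptors to degradation, had 3710.3, 2793 and 3849 normalized reads after aldosterone, against 4302, 4886 and 4809 after vehicle (0.74-fold, limma adjusted p = 0.00208). Id2, an inhibitor of basic helix-loop-helix factors, had 2117, 1315 and 1930.1 normalized reads after aldosterone, against 2166, 2649 and 2524 after vehicle (0.731-fold, limma adjusted p = 0.0213). In both genes aldosterone library 2 was the lowest of all 6. Id3 (0.745-fold, limma adjusted p = 0.0477), Smad6 (0.723-fold, 0.0121) and Klf10 (0.792-fold, 0.023) showed the same library lowest. The list kept 1 call without aldosterone library 2, 2 without aldosterone library 3, 2 without vehicle library 1, and none without vehicle library 2, without vehicle library 3 or with robust limma, and 1 of its members passed in the authors' deposited table.

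The most clearly lowered genes had other roles. Ptgs2, the inducible prostaglandin synthase COX-2, had 3487, 3318 and 3849 normalized reads after aldosterone, against 5058, 5661 and 5764 after vehicle. It fell to 0.646-fold without overlap (difference -0.51 ± 0.046, limma adjusted p = 1.27e-07). Pparg, the nuclear receptor of fat cell formation, had 676, 643 and 666 normalized reads after aldosterone, against 1009.9, 1036 and 1022 after vehicle. Its spread within each group was small beside the gap (0.647-fold, difference -0.32 ± 0.035, limma adjusted p = 2.99e-06). Csf1, the macrophage growth factor, had 25125, 22944 and 25287 normalized reads after aldosterone, against 31487, 31606 and 33694 after vehicle (0.758-fold, limma adjusted p = 2.15e-05). Plk2, a stress-linked polo kinase, had 3391, 3648 and 3219 normalized reads after aldosterone, against 4667, 4646 and 4560.2 after vehicle (0.739-fold, limma adjusted p = 5.23e-06).

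Lowered genes that passed in all omissions but that of vehicle library 3 included the MAP kinase phosphatase Dusp4 (0.699-fold, limma adjusted p = 7.16e-05, and 0.0625 without that library), the Krueppel-like factor Klf5 (0.708-fold, 9.93e-05 and 0.0707), the cytokine Clcf1 (0.675-fold, 0.000133 and 0.0515) and the neuron navigator Nav2 (0.739-fold, 0.00011 and 0.106). The same held for the collagen Col6a3 (0.785-fold, 0.000161 and 0.0625), the proteoglycan Hspg2, perlecan (0.782-fold, 0.000236 and 0.105), and the linker Plec, plectin (0.802-fold, 0.00237 and 0.254). Prl2c4 and Prl2c3, placental prolactin family genes with overlapping, near-identical records on chromosome 13, averaged 121 ± 37.6 and 124 ± 41.1 normalized reads after aldosterone and 238 ± 53.3 and 241 ± 54.6 after vehicle (SD, n = 3 each). Their reads may be shared, and both lost the call in 4 of 6 omissions.

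Ptgs2 and Csf1 were the 2 lowered members among 25 measured inflammatory genes, none rose, and the list median was 0.015 on the vst log2 scale. Beside the list counts of this paragraph, 0.41% of all genes tested were lowered and 0.634% raised. Of 19 immediate-early genes, the mRNA decay factor Zfp36 (1.44-fold) and the antiproliferative Btg2 (1.38-fold) rose and the AP-1 subunit Fosl1 (0.774-fold) fell. Zfp36 held in every omission, Btg2 in 3 of 6 and Fosl1 in 3 of 6, and Fosl1 did not pass with robust limma (0.274) or in the authors' deposited table (0.165). The span of Fosl1 overlaps that of Ccdc85b, a lowered gene on the opposite strand of chromosome 19. With no strand setting named for the counting, their reads cannot be told apart. Among 19 MAP kinase phosphatase and feedback genes, Dusp4 and Phlda1 (0.832-fold, called in 1 omission) fell and none rose.

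Genes of energy use and FOXO control gave 4 raised members of 20 and none lowered. Over all genes tested, 0.634% were raised and 0.41% lowered. Beside Ddit4 these were the insulin receptor substrate Irs2 (1.28-fold, limma adjusted p = 0.000277, held in all 6 omissions), the factor Foxo3 (1.25-fold, 0.00868, held in 3) and Txnip, an inhibitor of thioredoxin and glucose uptake. Txnip had 524, 816 and 562 normalized reads after aldosterone, against 433, 394 and 342 after vehicle (1.63-fold, limma adjusted p = 0.00464). Library 2 was far above the other aldosterone libraries, and the call was lost without vehicle library 2 (0.0539), without vehicle library 3 (0.423) and with robust limma (0.245). Sterol and fatty acid synthesis genes gave 20 positive differences among 26 (50.8% of all genes tested were positive), a median of 0.079 on the vst log2 scale, and 2 calls: Hmgcs1, the synthase at the entry of the mevalonate pathway (1.23-fold, limma adjusted p = 0.000952, and 0.181 without vehicle library 3), and the desaturase Scd1 (1.2-fold, 0.0121, held in 3 omissions).

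In the remaining lists few members passed, beside 0.634% raised and 0.41% lowered over all genes tested. Among 21 ATF4 and amino acid stress genes, Atf5 (1.17-fold) and Chac1 (1.22-fold) rose, each called in 1 of 6 omissions. Among 19 p53 and growth arrest genes, Trp53inp1 and Btg2 rose and Plk2 and Btg1 fell. Trp53inp1 was called in 2 of 6 omissions and Btg1 in 1, and 1 call of the list was left without aldosterone library 2 or without vehicle library 3, and 2 without aldosterone library 1 or vehicle library 1. Plk2 was also the only member called of 24 cell cycle genes, Bcl2l1 of 14 BCL2 family genes, Pparg of 16 lipid use genes, and Fkbp5 of 21 chaperone genes. Of 13 Krueppel-like factors, Klf9 rose and Klf5 and Klf10 fell. None of 22 replication-dependent histone genes and none of 30 ribosomal protein genes passed, in limma, in voom on whole reads or in the authors' deposited table. The epithelial list gave 1 call, the keratin Krt14, with 761, 526 and 884 normalized reads after aldosterone, against 927, 1028 and 1057 after vehicle (0.721-fold, limma adjusted p = 0.0251, called in 1 omission). The epithelial list summed to 1703 to 2275 normalized reads after aldosterone and 2312 to 2517 after vehicle. Nearly all of this sum was Krt14 (means 724 after aldosterone and 1004 after vehicle) and Gata3 (1244 and 1318), so it says little about the other markers. In these bulk samples fewer cells of a type and less RNA per cell cannot be told apart. The part of such cells in any other result was not tested.

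Parental cells without added MR were taken as the background of the hormone: 3 libraries after 10 nM aldosterone and 3 after vehicle, both for 2 h. They too are another, separately normalized line, so line and added receptor cannot be told apart. In the authors' deposited table of those cells, 4 genes rose (0.023% of 17379) and 14 fell (0.0806%). None of the 115 genes raised in MR580C cells and measured there was called raised, and their median log2 fold change was 0.41 in MR580C cells and 0.03 in cells without MR, both from the authors' deposited tables. For the 75 lowered genes the medians were -0.29 in MR580C cells and -0.04 in cells without MR, and 4 were called lowered there, Klf10 and Ankrd1 among them. Both sets were chosen by their values in the MR580C libraries, which by itself enlarges the MR580C medians. The gap between such medians therefore does not measure a difference between the lines. The difference between the responses was tested gene by gene (z test on the deposited fold changes), and 60 of 17377 genes passed (0.345%), 47 responding more positively in MR580C cells and 13 more negatively. Of these 60, 51 were among the called genes.

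The largest such difference was that of Per1, whose log2 fold change in the authors' deposited tables was 2.83 in MR580C cells and 0.62 in cells without MR (difference 2.20 ± 0.21 SE, z test adjusted p = 2.89e-22). Tsc22d3 had 2.21 in MR580C cells and 0.02 in cells without MR (difference 2.18 ± 0.12, z test adjusted p = 6.13e-74), and Foxred2 had 1.77 and -0.05 (difference 1.82 ± 0.11, 2.19e-53), again from the authors' deposited tables. Sphk1, Jade2 and Ccn2 followed with differences of 1.63, 1.36 and 1.16. On the lower side, the deposited log2 fold change of Pparg was -0.63 in MR580C cells and 0.19 in cells without MR (difference -0.82 ± 0.11, z test adjusted p = 5.59e-10), and that of Ptgs2 was -0.63 and -0.01 (difference -0.63 ± 0.089, 3.91e-09). Dynap, Unc5b, Bcar3 and LOC106557447 followed with -0.79, -0.62, -0.50 and -0.47. With standard errors 1.5 times as large, 15 genes passed, among them Per1, Tsc22d3, Foxred2, Jade2, Sphk1, Sgk1, Pparg and Ptgs2, but not Ccn2, Dynap, Unc5b, Bcar3 or LOC106557447. Bcar3 was not called within MR580C cells (limma adjusted p = 0.108).

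**Figure D4:**
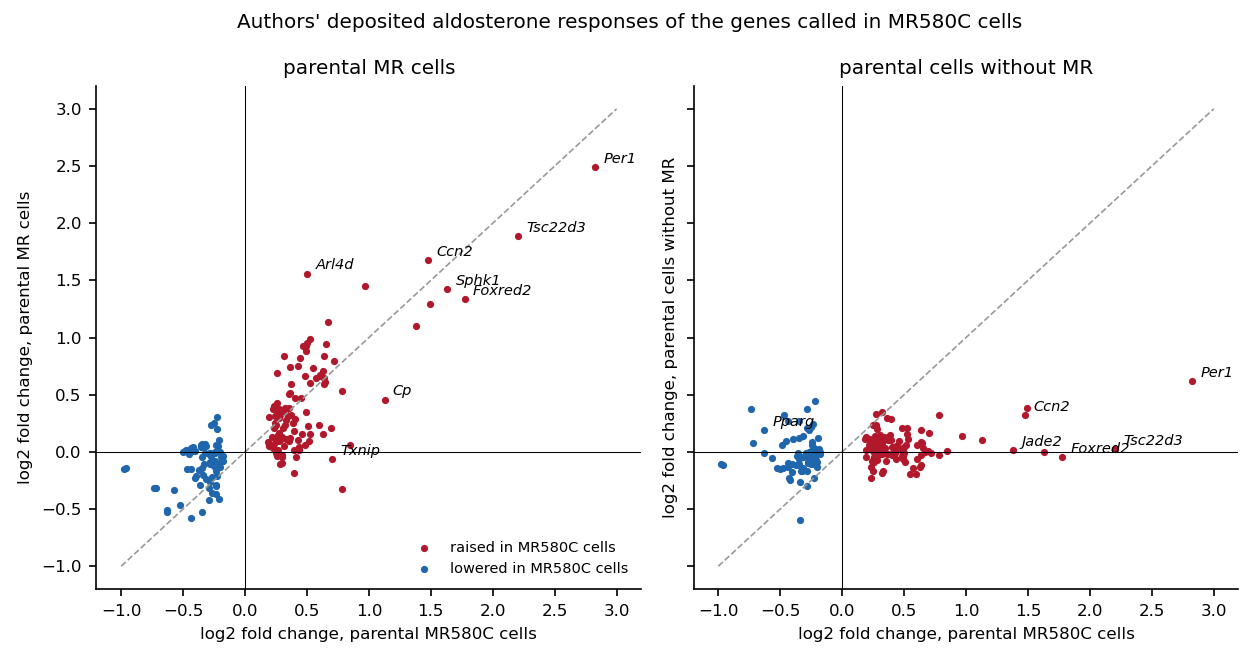
Authors' deposited log2 fold change of aldosterone against vehicle in parental MR580C cells (x) against that in parental MR cells (left panel, y) and in parental cells without MR (right panel, y), for 182 genes called in MR580C cells with group means that sum to over 100 normalized reads, and a dashed line of equal response. Raised genes spread along the line in the MR panel, with Arl4d above it at 1.56, and lie near 0 in the panel without MR, where Per1 is highest at 0.62.

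Parental cells with MR are another, separately normalized line, so line and receptor form cannot be told apart. They had 2 libraries after 10 nM aldosterone and 3 after vehicle, for 2 h. In the authors' deposited table of those cells, 108 genes rose (0.632% of 17090) and 19 fell (0.111%). Of the 116 genes raised in MR580C cells, 58 were called raised with MR and none lowered, and their median deposited log2 fold change was 0.41 in MR580C cells and 0.33 in MR cells. Of the 75 lowered genes, 8 were called lowered with MR, and their medians were -0.29 in MR580C cells and -0.10 in MR cells. The selection in MR580C cells enlarges these MR580C medians too, so the gaps do not measure a difference between the lines. The difference between the lines passed the z test for 27 of 17089 genes (0.158%), 8 responding more positively in MR580C cells and 19 more negatively.

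The log2 fold change of Arl4d, a small GTPase, in the authors' deposited tables was 0.50 in MR580C cells and 1.56 in MR cells (difference -1.06 ± 0.15 SE, z test adjusted p = 1.99e-08). It was among the 2 genes that passed with standard errors 1.5 times as large, and 14 passed with z limited to 8, which ended the call of Suox (0.0564) and Nabp1 (0.0528). Pim3, Flnc, Suox and Tpst2 had differences of -0.55, -0.53, -0.52 and -0.50, and the deposited log2 fold changes of Flnc and Tpst2 were -0.23 and -0.25 in MR580C cells and 0.30 and 0.25 in MR cells. In MR cells neither Flnc nor Tpst2 passed (authors' deposited adjusted p = 0.0523 and 0.156). Within MR580C cells Flnc was called in 3 omissions and Tpst2 in 1. On the other side, the deposited log2 fold change of Txnip was 0.70 in MR580C cells and -0.06 in MR cells (difference 0.76 ± 0.17, 0.0114), that of Ddit4 was 0.63 and 0.16 (difference 0.47 ± 0.1, 0.00421), and those of Trp53inp1, Gadd45a and Nabp1 differed by 0.58, 0.46 and 0.40. Pim3 (limma adjusted p = 0.56), Gadd45a (0.179) and Nabp1 (0.214) were not called within MR580C cells. Ifi207 differed by 3.77, from a deposited value of 0.22 in MR580C cells and -3.54 in MR cells, but averaged 19.2 normalized reads after aldosterone and 16.5 after vehicle in MR580C cells. It was not called within MR580C cells (limma adjusted p = 0.946). Per1, with 2.83 in MR580C cells and 2.49 in MR cells, and Sgk1, with 0.66 and 0.95, did not pass this test.

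GRKO cells with MR580C had 3 aldosterone libraries, of which 2 and 3 held the same value for every gene, so values are given without a test between the lines. In the authors' deposited table of those cells, 324 of 17041 genes rose (1.9%) and 229 fell (1.34%), and that count includes the repeated library. Of the 114 genes raised in parental MR580C cells and measured there, 32 were called raised and 1 lowered, with a median deposited log2 fold change of 0.40 in parental and 0.18 in GRKO cells. Of the 75 lowered genes, 15 were called lowered and 2 raised in the authors' deposited table of GRKO cells, with medians of -0.29 in parental and -0.12 in GRKO cells. Here too the genes were chosen by their values in parental MR580C cells, which enlarges the parental medians. The deposited log2 fold change of Per1 was 2.83 in parental and 1.80 in GRKO cells, that of Tsc22d3 was 2.21 and 0.93, that of Foxred2 was 1.77 and 1.04, and that of Sgk1 was 0.66 and 0.57. Txnip, with 0.70 in parental and 0.75 in GRKO cells, and Nr3c2, with 0.43 and 0.45, had near-equal deposited values. Tsku had 0.49 in parental and -0.13 in GRKO cells.

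Corticosterone at 100 nM for 2 h was measured in the same parental MR580C cells against the same 3 vehicle libraries, so its values stand beside those of aldosterone without a comparison. Per1 averaged 3816 ± 251 normalized reads after aldosterone, 8581 ± 221 after corticosterone and 537 ± 19.2 after vehicle (SD, n = 3 each). Sgk1 averaged 7669.5 ± 313 after aldosterone, 18141 ± 776 after corticosterone and 4857 ± 195 after vehicle. Ptgs2 averaged 3551 ± 271 after aldosterone, 2402 ± 56.4 after corticosterone and 5494 ± 382 after vehicle. Cp averaged 1903 ± 528 after aldosterone, 1932 ± 164 after corticosterone and 871 ± 115 after vehicle. Scd1 averaged 50806 ± 3495 after aldosterone, 44521 ± 1178 after corticosterone and 42275 ± 1995 after vehicle.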

How the data were processed

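Total RNA of mouse cells was sequenced as stranded libraries, per the labels' protocols. The submitters' processing notes name the mm10 build and HOMER 4.10.4, STAR 2.7.0f, Bowtie2 2.3.4.1, deepTools, cutadapt 1.18 and bcl2fastq 2.20, without saying which served the RNA. Per the file headers, the authors counted exon reads with HOMER, and their library columns hold log2 values after a variance-stabilizing transformation (vst) over 9 libraries. Not given in the sources used here are the annotation release, the strand setting and the test behind the deposited p-values. Exon length in bases is another column that the authors deposited.

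The vst was inverted to whole reads over size factors, and 100% of low values came out whole. The deposited log2 values of the 6 libraries were tested with limma 3.58.1 (R 4.3.3, trended variance, two-sided) on 18304 genes with Benjamini-Hochberg adjustment, threshold 0.05. Folds are ratios of mean normalized reads, while vst differences are compressed for low genes. Responses of separately normalized lines were set against each other by a z test that took the log2 fold changes the authors deposited (SciPy 1.17.1), with standard errors from those fold changes and p-values, adjusted over all genes shared by symbol. The scripts were tested on simulated data. Alternatives were other libraries, variance models, level filters, centring, omission of each library and the authors' deposited adjusted p-values. Whole reads with voom (genes with at least 10 reads in 3 libraries) and a limit of 10 normalized reads were added after seeing the data.

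Members and gene lists were chosen with earlier results of these data known. Genes were named by rule: the 20 raised and 15 lowered with the largest difference and no overlap, up to 4 called members per list, 10 set genes, and 6 per side in each comparison of lines. Genes named outside this rule were chosen after their values were seen: 4930503B20Rik, Ajuba, Bhlhe41, Ccdc85b, Cdh1, Epas1, Epcam, Gata3, Gm16325, Gm5532, Gm6093, Mir100hg, Mt1, Nr1d1, Orm1, Orm3, Prl2c3, Prl2c4, Rn45s, Slc7a2, Socs5, Tgm2 and Vim. A called gene that falls under the rule is not reported here, and the counts include it.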

Additional observations from a re-analysis of the deposited data

Results flagged for a closer look

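The aldosterone response in parental MR580C cells differed from that in parental cells without MR, by the z test on the deposited fold changes, for 60 genes. The differences in log2 fold change (MR580C minus no MR) were largest on the higher side for Per1 (2.20), Tsc22d3 (2.18), Foxred2 (1.82), Sphk1 (1.63), Jade2 (1.36) and Ccn2 (1.16). On the lower side they were largest for Pparg (-0.82), Dynap (-0.79), Ptgs2 (-0.63), Unc5b (-0.62), Bcar3 (-0.50) and LOC106557447 (-0.47). Bcar3 was not called within MR580C cells (limma adjusted p = 0.108).

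Against parental MR cells, the response differed for 27 genes by the same test. It was higher in MR580C cells for Ifi207 (3.77), Txnip (0.76), Trp53inp1 (0.58), Ddit4 (0.47), Gadd45a (0.46) and Nabp1 (0.40). It was lower for Arl4d (-1.06), Pim3 (-0.55), Flnc (-0.53), Suox (-0.52) and Tpst2 (-0.50). Ifi207 (limma adjusted p = 0.946), Gadd45a (0.179), Nabp1 (0.214) and Pim3 (0.56) were not called within MR580C cells. Ifi207 averaged 19.2 normalized reads there after aldosterone and 16.5 after vehicle, and its deposited log2 fold change was 0.22 there and -3.54 in MR cells. The causes were not tested.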

How the results depend on the processing

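The count of 191 genes stayed within 1.5 times under every setting except some omissions. Leaving out 1 library gave 41 to 147 calls, and each such fit had fewer samples. It was 233 with the corticosterone libraries in the fit, 191 without trend, 197 with robust limma, 182 among genes at or above the median level, 187 after centring, 187 with voom (178 shared) and 222 in the authors' deposited table (177 shared). With the replicate block, 224 genes were called (127 raised, 97 lowered). The block is no paired result, since deviations of same-numbered libraries correlated at -0.3, 0.06 and 0.36, and not every library correlated best with its own number. With standard errors 1.5 times as large, 15 genes differed from cells without MR and 2 from MR cells, and with z limited to 8, 14 differed from MR cells, and the cause was not tested. Of 66 named called genes, 31 held in every setting. The sign of 2 uncalled genes turned: over the omissions, Ifi207 ranged between -0.0319 and 0.0437 (-2.2e-05 without vehicle library 3) and Scnn1a between -0.0302 and 0.0293 (-0.00987 without vehicle library 2), and Scnn1a was -0.00351 after centring. Genes under about 10 reads, such as Zbtb16, cannot be judged at this depth.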
